A study of Mus musculus with 68 samples.

Results

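Matrix metalloproteinases (MMPs) and tissue inhibitors of metalloproteinases (TIMPs) were examined in mouse embryonic fibroblasts (MEFs) exposed to tunicamycin (TM). The members were chosen by name from 13378 genes listed in either of the 2 sets of libraries, with earlier results of these data known. The 7 MMP genes were Mmp2, Mmp3, Mmp9, Mmp10, Mmp11, Mmp13 and Mmp14, and the 3 TIMP genes Timp1, Timp2 and Timp3. All 10 are listed in both sets, and all 10 passed the filter on low values in the fits over each set and within each genotype. The founder set holds 40 RNA-seq libraries, 18 control and 22 TM, from 8 inbred strains that founded the Collaborative Cross mouse panel. These are the wild-derived CAST/EiJ (CAST), WSB/EiJ (WSB) and PWK/PhJ (PWK) and the classical strains C57BL/6J (B6), 129S1Sv/ImJ (129), A/J (A), NZO/H1LtJ (NZO) and NOD/ShiLtJ (NOD). The F1 set holds 28 libraries, 14 control and 14 TM, from crosses of a B6 mother with a CAST, 129, NOD, NZO or WSB father (xCAST, x129, xNOD, xNZO and xWSB). TM cells received 2 µg/ml TM and control cells 0.1% DMSO, both for 4 h, with 2 or 3 libraries per genotype and treatment. The MEFs of a genotype were 1 mixture of cells from several female embryos of 1 litter, so genotype and culture cannot be told apart. The labels do not say how replicates were grown. The study describes cells plated in wells and treated in triplicate, so replicates were at most separate wells of that mixture. P-values then measure only the spread between these libraries.

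MMPs are zinc-dependent enzymes that cleave collagen, other matrix proteins and proteins at the cell surface. Most are secreted as inactive proenzymes, while MMP14 is anchored in the plasma membrane. TIMPs bind active MMPs and block them, and TIMP2 also takes part in the activation of pro-MMP2 by MMP14. In fibroblasts Mmp2, Mmp14 and the TIMPs are typically expressed without stimulation, whereas Mmp3, Mmp9, Mmp10 and Mmp13 are known for induction by cytokines and by the transcription factors AP-1 and NF-kB. TM blocks N-linked glycosylation and causes misfolded proteins to accumulate in the endoplasmic reticulum (ER).

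Mmp13 (collagenase), Mmp3 (stromelysin-1) and Mmp10 (stromelysin-2) lie on the plus strand of chromosome 9, in a cluster of MMP genes. The annotation used here gave 9 protein-coding MMP genes there, over 427 kb (GRCm38, chr9:7272514-7699585). The others of these 9, Mmp12, Mmp1b, Mmp8, Mmp27, Mmp20 and Mmp7, are listed in neither set. Promoter sequences from RefSeq (GRCm38.p6) were found for 8 of the 10 members, each with 250 bases before and 50 bases after the transcription start, and none for Mmp2 and Mmp9. The AP-1 motif TGANTCA, searched on both strands, occurred in 3 of these 8 promoters, those of the clustered genes, against 7.81% of 32851 promoters of the same length. The 120 bases before each of these starts are shown because the 3 genes are neighbours with the same motif, with the motif in capitals:
Mmp13 (chr9:7272394-7272513, plus strand): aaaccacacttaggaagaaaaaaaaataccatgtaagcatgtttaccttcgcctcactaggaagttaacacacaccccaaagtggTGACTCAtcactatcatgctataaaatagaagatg
Mmp3 (chr9:7445702-7445821, plus strand): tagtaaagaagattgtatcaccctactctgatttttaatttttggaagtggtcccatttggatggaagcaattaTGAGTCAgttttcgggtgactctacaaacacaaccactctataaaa
Mmp10 (chr9:7502222-7502341, plus strand): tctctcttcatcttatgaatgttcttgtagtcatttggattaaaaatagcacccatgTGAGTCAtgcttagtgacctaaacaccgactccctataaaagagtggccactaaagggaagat
The motif began 35 bases before the start in Mmp13, 46 in Mmp3 and 63 in Mmp10. A match describes the letters only. An NF-kB motif (3 G, then 5 bases of any kind, then 2 C, on either strand) occurred in 5 of the 8 promoters (Mmp11, Mmp14, Timp1, Timp2 and Timp3) against 50.8% of all promoters. The outer parts of the ER stress element, CCAAT and CCACG, occurred in 3 members each, against 37.4% and 32.8% of all promoters.

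The remaining members lie apart from one another. Mmp2 (gelatinase A) is on chr8:92827291-92853420, Mmp9 (gelatinase B) on chr2:164940780-164955850, Mmp14 on chr14:54431612-54445364 and Mmp11 (stromelysin-3) on chr10:75923222-75936496. Timp1 is on chrX:20870166-20874735, Timp2 on chr11:118301069-118355740 and Timp3 on chr10:86300372-86349506. Exons of Mmp11 overlap those of Chchd10 on the opposite strand, and exons of Timp3 overlap those of Syn3, which is not listed. Timp1 lies within Syn1, and Timp2 overlaps Cep295nl on the same strand, in both cases with no shared exon. The counting is not stated to have used strand, so reads from the overlapped stretches cannot be told apart.

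The deposited values are reads per gene scaled by library size and not divided by gene length, and the founder and F1 tables were scaled separately. Levels of different genes were therefore compared only after division by exon length, and within a set. On that scale the founder controls had a median over strains of 1225 units per kb for Timp1, 386 for Timp2 and 149 for Timp3. Mmp14 followed at 95.0 and Mmp2 at 58.9, and Mmp11 had 12.3. The collagenase, the stromelysins and gelatinase B were far lower, at 3.01 for Mmp3, 2.26 for Mmp13, 1.89 for Mmp9 and 1.33 for Mmp10. The F1 controls gave 819, 347 and 135 for the 3 TIMPs, 89.6 for Mmp14, 55.8 for Mmp2 and between 0.980 and 2.36 for Mmp3, Mmp9, Mmp10 and Mmp13. In whole reads, the low members rested on 3 to 679 reads per founder library and 14 to 518 per F1 library, against 4281 to 64258 reads for Timp3 in the founders.

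**Figure D1:**
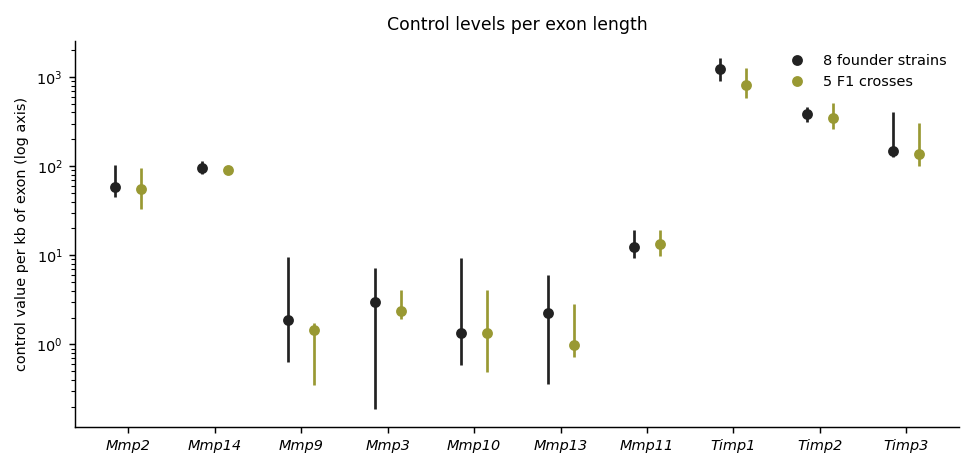
Control value per kb of exon (log axis) for the 10 members. Points are medians over genotypes, and lines run from the lowest to the highest genotype mean, for 8 founder strains and 5 F1 crosses. The TIMPs, Mmp14 and Mmp2 sit above Mmp11, and Mmp3, Mmp9, Mmp10 and Mmp13 sit lowest with the widest spread among founder strains.

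Reads on genes ranged from 7091923 to 21530282 in 38 founder libraries and from 6442976 to 29528457 in the 28 F1 libraries, and TM libraries were shallower than controls in the median (10730220 against 14072068 in the founders). In bulk RNA, fewer cells of a type and less RNA per cell cannot be told apart. The ER stress response was present in every genotype. Hspa5, an ER chaperone, was 5.75- to 8.80-fold higher in TM, and Ddit3, a stress transcription factor, was 9.05- to 20.1-fold higher. All 10 fibroblast markers were listed in both sets, with summed control values of 13812 to 34434. Of 11 myeloid markers 9 were listed in the founders and 5 in the F1 crosses, with summed control values of 17.9 to 65.5 and of 7.38 to 17.1. Cartilage and bone markers summed to 104 to 645 in founder controls and 34.5 to 688 in F1 controls, with Ibsp and Bglap not listed. Of the muscle markers only Des and Actc1 were listed, and Epcam was listed in neither set.

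To give 1 TM change per member, the log2 difference between TM and control was averaged over the 8 strains in limma. The SE and p-value of such a mean, here and over the crosses, reflect the spread between libraries within groups. They do not measure the spread among genotypes, where Mmp9 ran from -0.14 in 129 to 1.54 in NZO. In the founders 3 members were raised and 1 was lowered past both thresholds of the study, an adjusted p under 0.01 and a change of at least 1.5 fold, against 6.04% and 5.4% of 13193 genes. Those raised were Mmp9 (log2 change 1.00 ± 0.06 SE), Mmp13 (0.94 ± 0.12) and Mmp10 (0.66 ± 0.10), and the member lowered was Mmp14 (-0.59 ± 0.04). With a pseudocount of 1 in place of 0.1 the Mmp10 change was 0.50 and no longer past the fold threshold. By the adjusted p alone, Mmp2 (-0.31 ± 0.03), Timp2 (-0.31 ± 0.03) and Timp3 (-0.55 ± 0.08) also fell, which made 3 members up and 4 down against 20.5% and 21.9% of all genes. Mmp3 (0.31 ± 0.12, adjusted p = 0.0286), Timp1 (0.09 ± 0.08, adjusted p = 0.300) and Mmp11 (0.05 ± 0.05, adjusted p = 0.439) did not pass. The median over the 10 members was 0.07, beside -0.04 over all genes.

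In the 5 crosses 2 members were raised, Mmp13 (1.00 ± 0.10) and Mmp10 (0.62 ± 0.10), and 1 was lowered, Timp3 (-0.63 ± 0.07), against 4.97% and 5.57% of 12757 genes. By the adjusted p alone Mmp9 (0.49 ± 0.11) also rose and Mmp14 (-0.47 ± 0.06), Mmp2 (-0.27 ± 0.04) and Timp2 (-0.27 ± 0.04) also fell, against 17% and 18.8% of all genes. Mmp3, Timp1 and Mmp11 again did not pass, with log2 changes of 0.37 ± 0.13 (adjusted p = 0.0240), 0.10 ± 0.11 and 0.02 ± 0.06. The members past the adjusted p were thus Mmp9, Mmp10 and Mmp13 upward and Mmp2, Mmp14, Timp2 and Timp3 downward in both sets. Mmp14 lay at the fold threshold in the founders. Its log2 change moved inside it, to -0.56 with library weights, -0.58 in edgeR and between -0.57 and -0.58 without any 1 of 14 libraries spread over the 8 strains, while its adjusted p was 1.344e-13.

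Mmp9 encodes gelatinase B, which cleaves denatured collagen and basement membrane collagen. In TM its libraries lay wholly above the controls in 7 of the 8 founder strains, by 1.70 to 2.92 fold, and 129 was the exception. Such separation held in all 8 strains for 4.12% of all genes listed, and the share for 7 strains was not computed. CAST had 12.4 and 14.3 in control and 31.0 and 37.2 in TM, a 2.54-fold difference. NOD had 8.94 and 10.5 in control and 20.1, 23.0 and 22.1 in TM, a 2.23-fold difference. PWK had 4.70, 4.56 and 4.30 in control and 9.84, 8.87 and 9.72 in TM, a 2.07-fold difference. These were the 3 strains in which the change passed both thresholds. NZO started lower, with 2.98 and 3.44 in control and 9.12, 10.2 and 9.33 in TM, and its 2.92-fold difference was the largest of the founders although its adjusted p was 0.0168. A had 6.37, 8.29 and 11.9 in control and 24.2, 24.0 and 23.0 in TM. B6 (2.48 and 2.43 against 4.90 and 3.92) and WSB (2.61 and 1.91 against 3.82, 3.95 and 3.83) had the lowest levels under both treatments. In 129 the controls, at 34.0 and 33.3, were already as high as CAST in TM, and the TM libraries had 25.6, 34.3 and 32.2, a 0.905-fold difference whose ranges overlapped.

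The control level of Mmp9 differed among the founders (adjusted p = 6.594e-16 in limma). The highest mean, 33.7 ± 0.5 (SD, n = 2) in 129, was 14.9 times the lowest, 2.26 ± 0.49 (n = 2) in WSB. In descending order the means were 129, CAST, NOD, A, PWK, NZO, B6 and WSB, where NOD and A overlapped, as did B6 and WSB, and the other neighbours were separate. The TM libraries of 129, CAST, A and NOD all lay between 20.1 and 37.2. Mmp9 was the member whose TM change differed among strains in the fit over all 40 libraries (interaction adjusted p = 0.004545, against 0.174% of all genes past that test). That result rested on 129. Without either of its control libraries, or without its TM replicate 1, the adjusted p was 0.0628, 0.0465 and 0.0188. In a moderated F test of the TM change over each strain's median control, which takes that median as fixed, the strain effect had an adjusted p of 1.789e-06. Myeloid cells are a known source of Mmp9, and the summed myeloid markers in 129 were 18.5 in control, near the lowest of the founders. Adgre1, Cd68, Ptprc, Itgam and Tyrobp were each lowest in 129, with Tyrobp at 0. Laptm5 at 0.832 and Lyz2 at 2.30 were low in their founder ranges (0.652 to 4.11 and 1.21 to 40.6). Csf1r at 7.72 and Cd14 at 5.05 were near the top of theirs (3.30 to 8.70 and 1.72 to 6.50). The part of myeloid cells in the result was not tested. In all 13 genotypes the myeloid sum was lower in TM than in control. The fibroblast, muscle, and cartilage and bone sums were each lower in TM in 12 of 13 genotypes. The sum of epithelial markers was lower in 9 and that of endothelial markers in 6.

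In the crosses Mmp9 followed another pattern. xCAST had 1.50 and 1.01 in control and 6.56, 4.20 and 4.65 in TM, the largest fold difference of any member in any genotype at 3.86, and it passed both thresholds. x129 had 3.53, 2.64 and 3.32 in control and 3.91, 5.28 and 4.29 in TM, with no overlap, and a log2 change of 0.49 ± 0.18 (adjusted p = 0.0753). xNOD, xWSB and xNZO overlapped between treatments. Their control libraries ranged from 4.14 to 7.28 and their TM libraries from 3.75 to 8.79, and the estimate for xNZO was below control at 0.768 fold. The control level differed among crosses (adjusted p = 1.098e-06), from 6.13 in xNOD to 1.25 in xCAST. The interaction over the crosses had an adjusted p of 0.0257 and did not pass, where 0.0549% of all genes did.

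Mmp13 encodes collagenase-3, which cleaves fibrillar collagen and is typical of cartilage and bone cells. TM lay above control with no overlap in 7 founder strains and in all 5 crosses, and the estimate was positive in all 13 genotypes. Of all genes listed, 4.53% lay above control without overlap in every cross. In every founder strain 4.12% did, which Mmp13 did not, and the share for 7 strains was not computed. B6 had the largest difference among the founders, 3.45 and 2.84 in control against 11.1 and 8.95 in TM, or 3.12 fold. NZO had 6.68 and 4.95 against 18.1, 13.8 and 13.6, and A had 10.9, 13.4 and 15 against 32.2, 28 and 24.5. Both were thus more than 2-fold higher in TM, although neither passed within its strain. CAST (6.94 and 8.24 against 12.7 and 11.6), NOD (7.79 and 4.73 against 13.3, 12.0 and 8.12) and WSB (2.85 and 6.32 against 10.2, 8.39 and 7.57) differed by 1.60, 1.78 and 2.01 fold. The 129 libraries were high under both treatments, at 13.9 and 18.4 against 22.0, 19.1 and 19.6, a 1.26-fold difference. PWK was low under both, at 0.444, 0.768 and 1.65 against 1.04, 1.31 and 1.41, and there the ranges overlapped.

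Control levels of Mmp13 spanned 17 fold among founders, from 16.2 ± 3.2 (SD, n = 2) in 129 to 0.953 ± 0.623 (n = 3) in PWK (adjusted p = 7.392e-11). PWK lay below and separate from every other strain, and 129 and A above and separate from the rest. Between them CAST, NOD, NZO, WSB and B6 each overlapped the next. In the crosses xCAST had 4.51 and 6.53 in control and 13.8, 18.0 and 12.5 in TM, a 2.66-fold difference that passed both thresholds. xWSB reached a similar TM level, with 6.53, 6.88 and 9.41 against 20.3, 11.9 and 12.8. x129 (2.34, 2.83 and 2.42 against 4.28, 4.05 and 3.47), xNOD (3.37, 2.44 and 2.05 against 5.13 and 5.08) and xNZO (1.94, 1.98 and 1.92 against 5.21, 3.32 and 4.21) lay lower, by 1.53 to 2.09 fold between treatments. The interaction test of the change among founders did not pass (adjusted p = 1), whereas the moderated F test of strain effect gave 0.005788. That call was lost in the unmoderated F test (0.0111) and without any 1 of 13 libraries, at up to 0.0259. Summed cartilage and bone markers in control were 626 in A, 645 in CAST, 165 in 129 and 312 in PWK. Col2a1 alone gave 612 of the sum in CAST. In 12 of 13 genotypes the sum was lower in TM, as the fibroblast sum was in 12 of 13. The part of cartilage and bone cells in the Mmp13 levels was not tested.

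Mmp10 encodes stromelysin-2, which cleaves proteoglycans and activates other proenzymes. Its estimates were positive in all 13 genotypes, and TM lay above control without overlap in 5 founder strains and 3 crosses. The share of all genes separate in as many strains or crosses was not computed. NZO showed the largest founder difference, 2.75 and 2.77 in control against 5.29, 6.01 and 7.43 in TM, or 2.20 fold. NOD had 5.64 and 3.78 against 8.15, 9.18 and 7.44. A (3.32, 3.28 and 2.38 against 4.92, 5.02 and 3.83), B6 (2.02 and 1.62 against 2.73 and 3.03) and WSB (0.869 and 1.18 against 3.12, 1.60 and 1.69) were also separate. In CAST, PWK and 129 the ranges overlapped. As with Mmp9 and Mmp13, 129 had the highest control level, with 14.1 and 17.8 against 24.3, 19.6 and 15.2 in TM. Its control mean was 15.6 times that of WSB, the lowest, whose controls held 7 and 8 reads and overlapped those of PWK. Control levels differed among strains (adjusted p = 2.575e-11 in limma). In the crosses the order was different, with xWSB highest (8.30, 5.43 and 7.15 in control, 21.6, 15.1 and 12.2 in TM). xCAST was lowest in control, with 0.984 and 0.704 against 2.66, 2.46 and 2.32 in TM, a 2.77-fold difference that passed both thresholds. x129, xNOD and xNZO differed by 1.01 to 1.17 fold. The interaction over crosses had an adjusted p of 0.124. The mean change over the crosses dropped below the fold threshold without control replicate 3 of xCAST or TM replicate 1 of xWSB, at a log2 of 0.58 in both.

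Mmp3 encodes stromelysin-1, a close relative of Mmp10 with similar substrates. Its change did not pass in either set, in any strain or in any cross, and the estimates ran from 0.842 fold in CAST to 1.70 fold in xCAST. CAST had 11.7 and 10.5 in control and 10.0 and 8.67 in TM, with TM wholly below control. B6 (4.51 and 5.57 against 8.96 and 6.49) and WSB (3.35 and 5.59 against 7.54, 6.29 and 6.14) had TM wholly above. xCAST, with 6.31 and 8.34 against 11.6, 10.3 and 15.9, was the cross with TM above control. The main feature of Mmp3 was its near absence from PWK, where the controls had 0.266, 0.512 and 0.235 and the TM libraries 0.757, 0.504 and 0.245. In whole reads this was 3, 10 and 4 in the controls. The mean of A, the highest at 13.1 ± 2.4 (SD, n = 3), was 38.8 times that of PWK, the widest span of any member, and the lowest of the other 7 strains, NZO, had 4.34. Control levels differed among founders (adjusted p = 1.179e-12). Among the crosses, which do not include PWK, means ran from 3.47 in x129 to 7.33 in xCAST, neighbours overlapped throughout, and the difference did not pass (adjusted p = 0.0556).

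**Figure D2:**
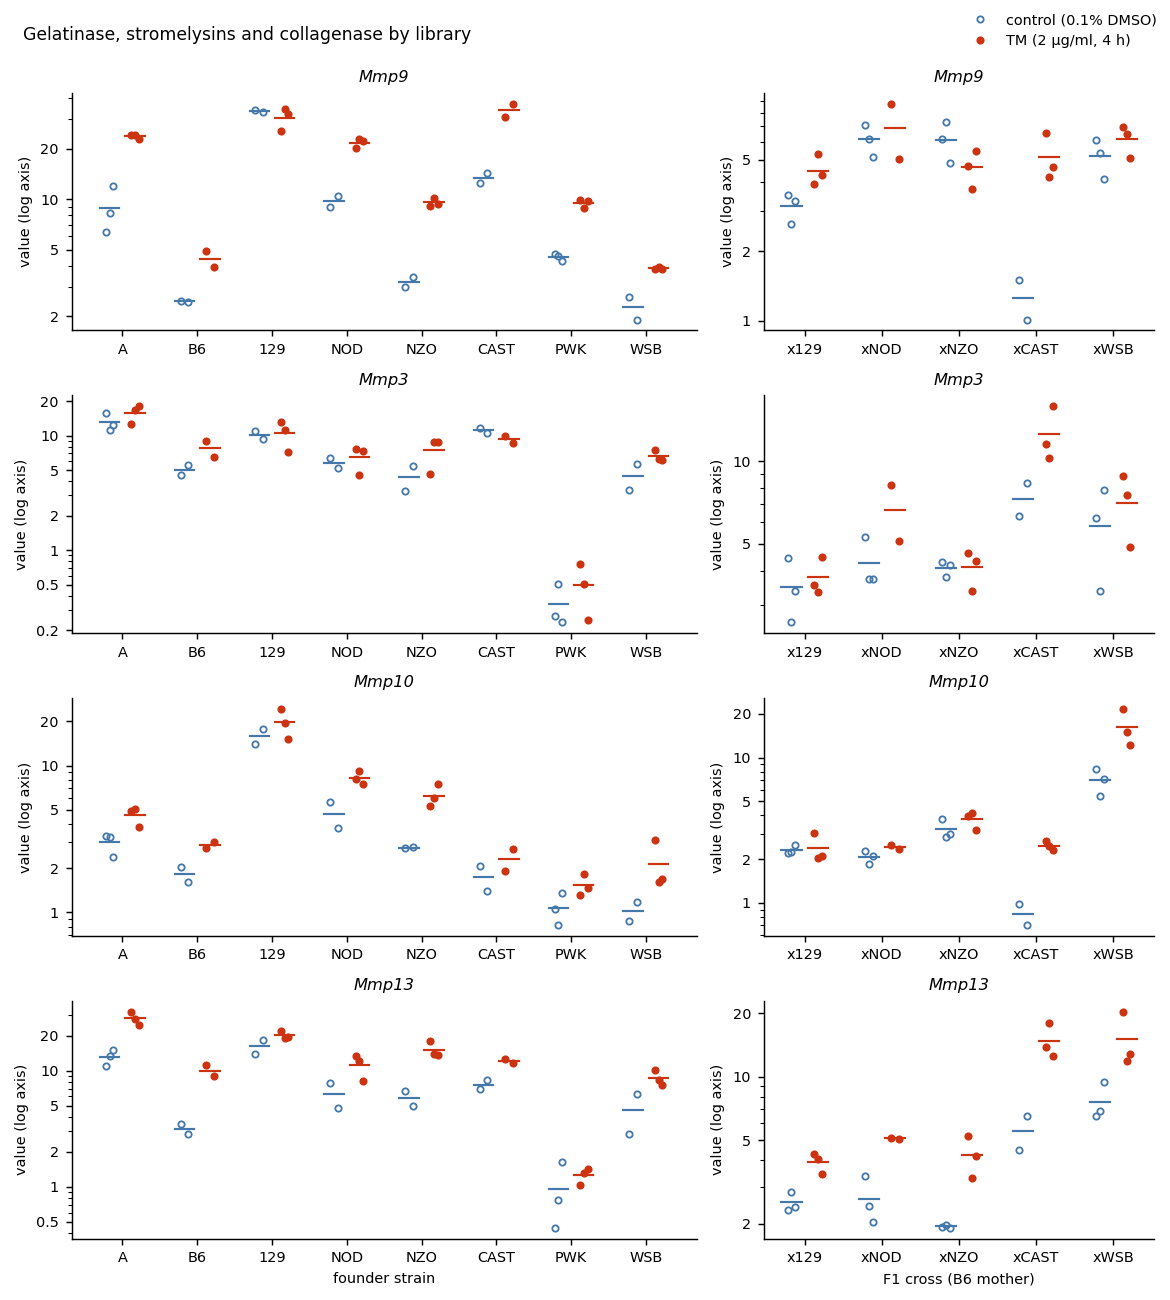
Value per library (log axis) of Mmp9, Mmp3, Mmp10 and Mmp13 in founder strains (left) and F1 crosses (right). Open circles are control, filled circles TM, and bars group means of 2 or 3 libraries. In 129 the control points of Mmp9 are as high as those in TM, PWK lies lowest for Mmp3 and Mmp13, and all 3 raised genes in xCAST are separate from control.

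Mmp14 encodes membrane-type 1 MMP, a collagenase at the cell surface that activates pro-MMP2, the product of Mmp2. Both had estimates below control in all 13 genotypes. For Mmp14 the TM libraries lay wholly below the controls in all 8 strains and in 4 of 5 crosses, and for Mmp2 likewise. Of all founder genes, 2.99% were below without overlap in every strain, and the share for 4 of 5 crosses was not computed. Mmp14 in A had 725, 649 and 676 in control and 464, 440 and 439 in TM, and PWK had 719, 655 and 668 against 462, 447 and 462. B6 had 587 and 532 against 375 and 386, WSB 619 and 585 against 380, 430 and 390, and CAST 552 and 561 against 366 and 389. NZO had 542 and 562 against 336, 348 and 370, NOD 437 and 531 against 317, 352 and 328, and 129 had 561 and 584 against 308, 394 and 428. The fold differences were thus held between 0.636 and 0.689 in the 8 strains, a narrow range compared with Mmp9. Control means spanned 1.41 fold, from 683 in A to 484 in NOD. They differed among founders with an adjusted p of 0.003567, which rose to 0.0234 or 0.0109 when control replicate 1 of NOD or of PWK was left out. In the crosses the fold was 0.654 in xNOD to 0.780 in xNZO, and xNZO was the cross with overlap (500, 539 and 415 in control, 354, 349 and 431 in TM). Control levels were not shown to differ among crosses (adjusted p = 0.486), with means of 485 to 576.

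Mmp2 differed less with treatment, by 0.753 fold in NZO to 0.864 fold in PWK, and more with strain. Control means were 351 in CAST, 297 in PWK, 237 in NOD, 201 in B6, 196 in NZO, 178 in A, 160 in 129 and 153 in WSB (adjusted p = 1.821e-12). All neighbours in that order were separate except B6 with NZO and 129 with WSB. CAST had 347 and 356 in control and 283 and 288 in TM, so that its TM libraries stayed above the controls of NOD. The crosses had the same leading father, with 330 and 307 in xCAST controls against 254, 259 and 255 in TM. xNZO was lowest, at 121, 117 and 97.1 against 97.7, 102 and 106, and its ranges overlapped. Control levels differed among crosses (adjusted p = 8.805e-11).

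Timp2 encodes the inhibitor that forms a complex with MMP14 and pro-MMP2. It was lower in TM in all 13 genotypes with no overlap in any, although in xNZO the lowest control library had 915 and the highest TM library 914. The differences were 0.789 fold in A to 0.823 fold in NZO among founders and 0.807 to 0.859 fold among crosses. B6 had the highest control values, 1862 and 1758 against 1457 and 1430 in TM, and NOD the lowest, 1163 and 1254 against 949, 983 and 967. Libraries of TM replicates in A lay within 1156 to 1158. Control means spanned 1.50 fold among founders (adjusted p = 0.0001049) and 1.93 fold among crosses (adjusted p = 7.168e-09), from 1972 in xCAST to 1023 in xNZO. The genes below control in every cross without overlap made up 3.32% of those listed.

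Timp3 encodes the TIMP that binds to the extracellular matrix and also inhibits ADAM proteases. It fell in the mean over strains and over crosses, with large differences among genotypes in the estimate. PWK had the highest level and overlapping treatments, at 3232, 3290 and 3312 in control and 3184, 3691 and 3490 in TM, a 1.05-fold difference. The 129 libraries had 1083 and 1158 in control and 446, 543 and 816 in TM, or 0.521 fold. NOD had 946 and 1205 against 606, 642 and 532, or 0.554 fold. WSB had 1055 and 1264 against 756, 798 and 595, or 0.616 fold. Each of these 3 strains was separate between treatments. B6, with 1831 and 1560 against 1118 and 1135, passed both thresholds at a log2 change of -0.585. CAST (1355 and 1654 against 1314 and 1324) and NZO (1293 and 1238 against 1042, 1085 and 669) differed less, and A overlapped (745, 1199 and 1158 against 767, 474 and 584). The interaction over founders was not past the test (adjusted p = 1), but with library weights it had an adjusted p of 0.0003432.

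Control levels of Timp3 differed among founders (adjusted p = 6.99e-07) with PWK, at 3278 ± 41 (SD, n = 3), separate from B6 at 1695 and 3.17 times A at 1034. The 5 lowest strains, NZO, WSB, 129, NOD and A, each overlapped the next. Among crosses xWSB was highest in control, with 1757, 2726 and 2919 against 1214, 1231 and 1117 in TM. Its fold of 0.492 was the lowest of any member and genotype, but the change did not pass (adjusted p = 0.112 in limma). xNOD had 992, 1137 and 1172 against 542 and 596, and passed both thresholds at 0.518 fold. xCAST (1484 and 1613 against 1324, 1314 and 987), xNZO (988, 1105 and 1051 against 796, 695 and 760) and x129 (849, 873 and 704 against 566, 719 and 628) differed by 0.716 to 0.788 fold, and x129 overlapped. Control levels differed among crosses (adjusted p = 1.345e-07).

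**Figure D3:**
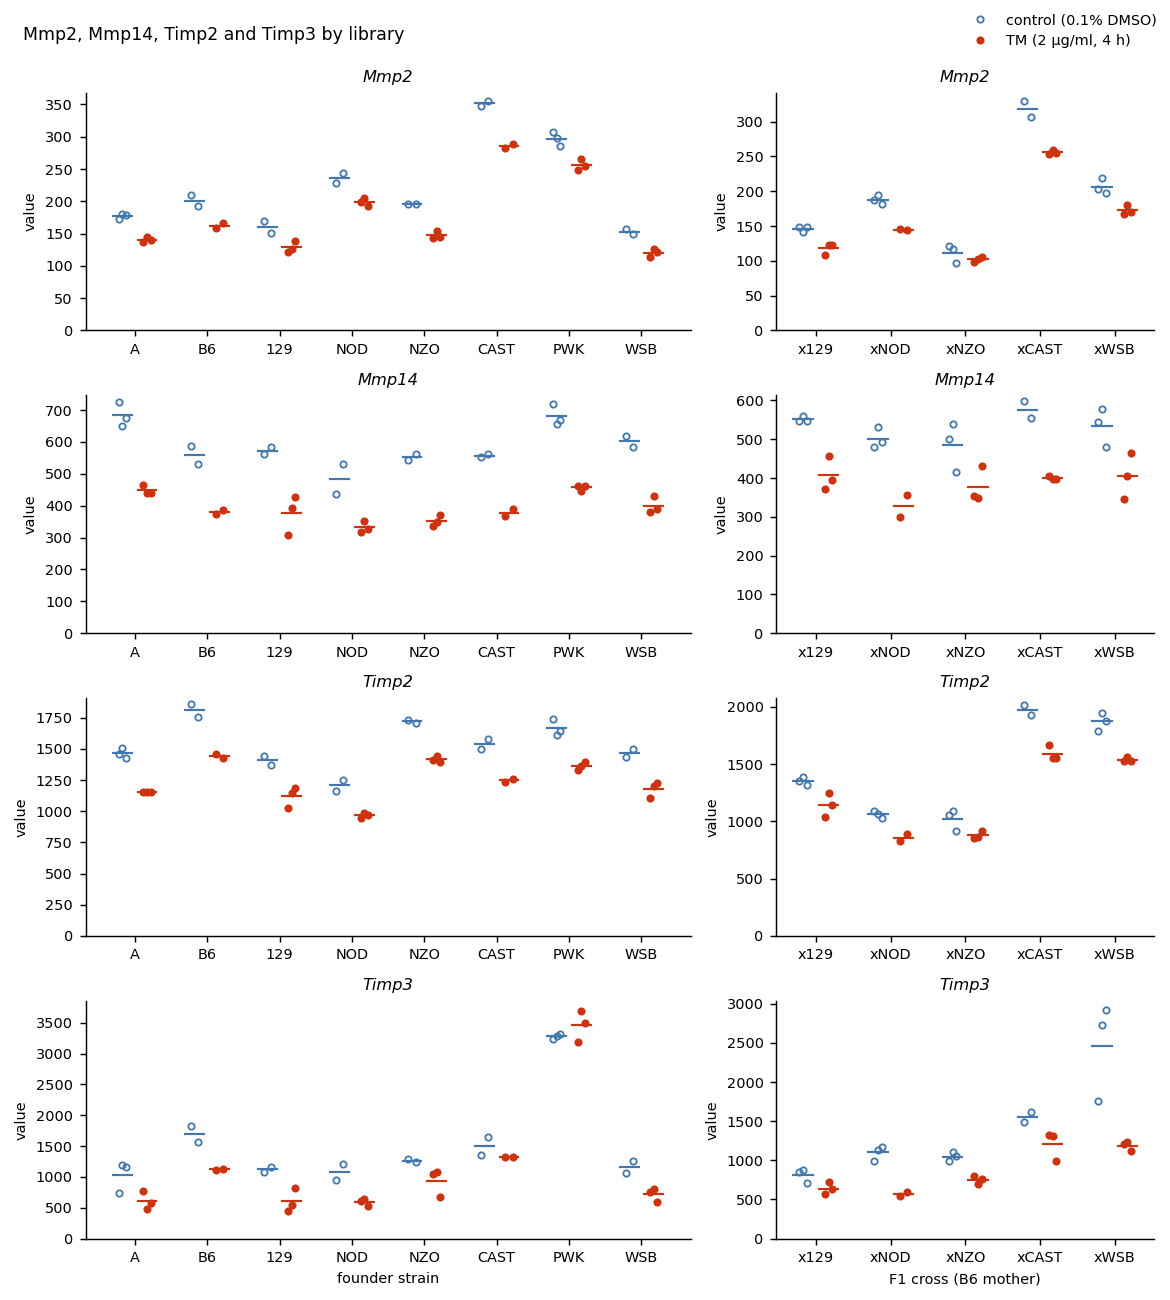
Value per library (linear axis from 0) of Mmp2, Mmp14, Timp2 and Timp3 in founder strains (left) and F1 crosses (right). Open circles are control, filled circles TM, and bars group means of 2 or 3 libraries. Timp2 TM points lie below control in all 13 genotypes, and Timp3 in PWK stands above 3184 under both treatments.

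Timp1 encodes a soluble inhibitor of most secreted MMPs and Mmp11 encodes stromelysin-3, an MMP activated inside the cell by furin. Neither passed the test of the mean in either set. For Timp1 the largest founder estimate was 1.46 fold in WSB, where 900 and 942 in control lay below 1441, 1172 and 1433 in TM (adjusted p = 0.0253). CAST had 887 and 905 against 801 and 853. In A the TM libraries had 1199, 2534 and 1336, and without the high one, TM replicate 2, the TM values lay within 1199 to 1336 against 1260 to 1459 in control. In xWSB replicate 1 stood apart in both treatments, with 1656 in control and 1474 in TM against 840 to 1041 in the others. Control levels of Timp1 in the founders had an adjusted p of 0.0165, from 1437 in NZO to 805 in B6, and passed at 0.000894 when only control libraries entered the fit. They differed among crosses (adjusted p = 0.001821), where xWSB and xCAST, at 1132 and 1094, lay above the others at 516 to 727.

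Mmp11 differed with genotype and not detectably with TM. Its estimates lay between 0.852 fold in xCAST and 1.15 fold in xNZO, and its ranges overlapped in all 8 strains, while TM lay wholly above control in x129 and wholly below it in xNOD. Control means ran from 54.0 ± 7.5 (SD, n = 2) in B6 and 46.8 in WSB to 25.7 in A (adjusted p = 1.237e-05), with B6, WSB and PWK separate from one another and the 5 strains below PWK overlapping in turn. In the crosses xWSB had 53.6 and x129 27.2 (adjusted p = 2.023e-05).

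**Figure D4:**
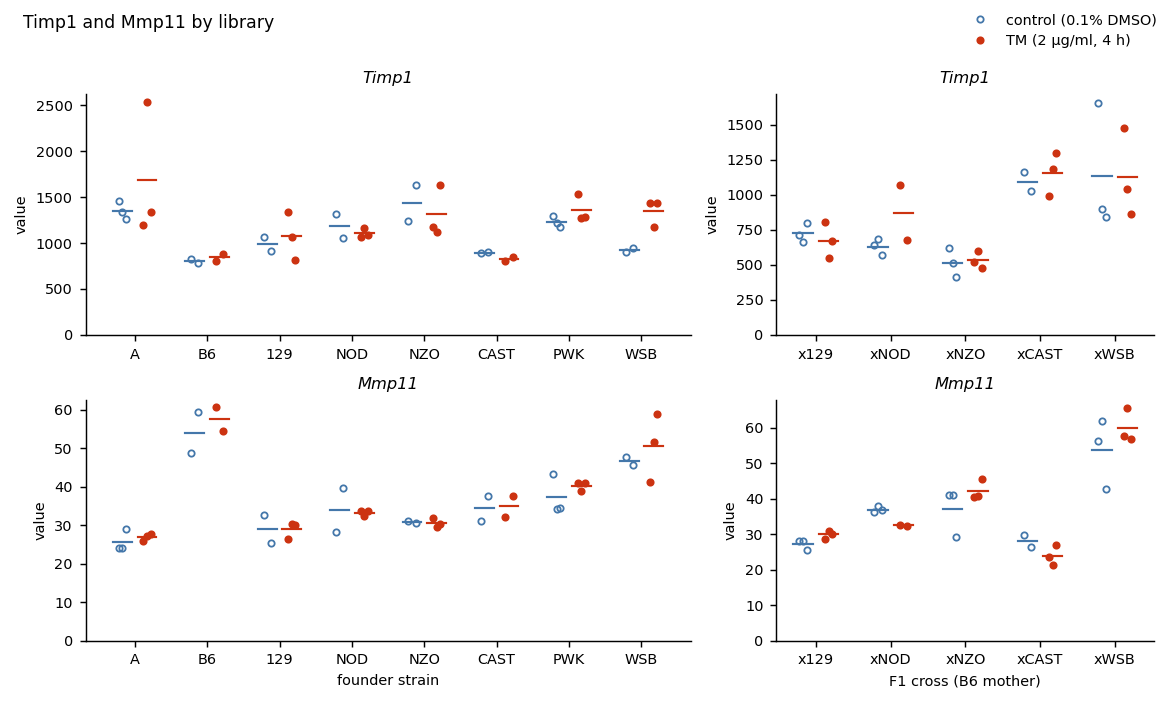
Value per library (linear axis from 0) of Timp1 and Mmp11 in founder strains (left) and F1 crosses (right). Open circles are control, filled circles TM, and bars group means of 2 or 3 libraries. Timp1 in A shows 1 TM library at 2534, and control and TM of Mmp11 overlap in every founder strain.

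Taking each genotype alone, 5 member changes passed both thresholds in the founders. These were Mmp9 in CAST, NOD and PWK and Mmp13 in B6 upward, and Timp3 in B6 downward. Beside them, the share of all genes past both thresholds was 0.323% in 129, 0.354% in A, 8.25% in B6, 3.01% in CAST, 1.62% in NOD, 0.328% in NZO, 10.7% in PWK and 7.05% in WSB. In the crosses 4 changes passed, Mmp9, Mmp10 and Mmp13 upward in xCAST and Timp3 downward in xNOD. There the share of all genes was 3.71% in xCAST, 8.29% in xNOD, 6.24% in x129, 1.59% in xNZO and 0.201% in xWSB. NZO, with few genes called, had the largest founder fold for Mmp9 without a call. Leaving out any 1 library of B6 ended both calls there, with log2 changes of 1.49 to 1.80 for Mmp13 and -0.70 to -0.47 for Timp3. Leaving out any TM library of NOD ended the Mmp9 call there, at 1.12 to 1.21. In xCAST the Mmp9 call was lost without TM replicate 1 (1.76), the Mmp10 call without control replicate 3 or TM replicate 1 or 2 (1.25 to 1.47), and the Mmp13 call without control replicate 2 or TM replicate 1 or 2 (1.15 to 1.45). In xNOD the Timp3 call was lost without TM replicate 1 or any control (-1.02 to -0.88). The Mmp9 calls in CAST and PWK were not lost in this way.

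**Figure D5:**
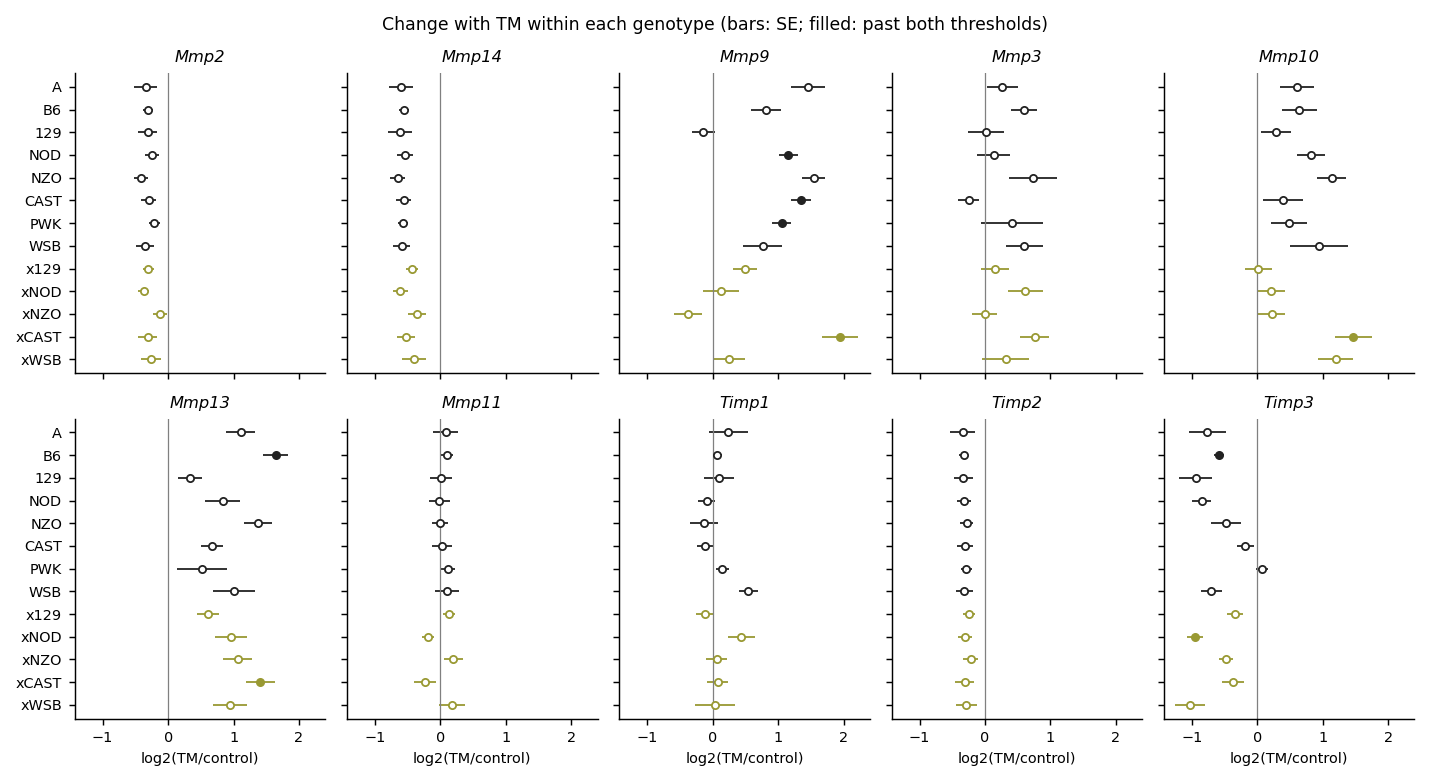
Log2 change of TM over control in each of 13 genotypes for the 10 members, on the scale of log2(value + 0.1). Bars are SE, black founders, olive crosses, and filled points passed an adjusted p of 0.01 and 1.5 fold. Mmp2, Mmp14 and Timp2 lie left of 0 in every genotype, Mmp10 and Mmp13 right of 0, and Mmp9 spreads from xNZO to xCAST.

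Across members, control levels differed among founders for 9 of 10, all but Timp1, where 37.3% of all genes differed. Among crosses they differed for 8 of 10, all but Mmp3 and Mmp14, where 24.9% of all genes differed. The strain effect on the TM change passed for 2 members, Mmp9 and Mmp13, in the moderated F test, against 3.29% of all genes, and for Mmp9 alone in the unmoderated one. For the other 8 its adjusted p ran from 0.0386 (Timp3) to 0.993 (Timp2).

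Founder and cross levels were scaled apart, so only order and fold can be set side by side, and their differences were not tested. The father 129 had the highest control Mmp9 and Mmp10 among founders, while x129 was second lowest of the crosses for Mmp9 and in the middle for Mmp10. For Mmp9 the fold was 0.905 in 129, 1.75 in B6 and 1.41 in x129. It was 2.92 in NZO and 0.768 in xNZO, 2.23 in NOD and 1.09 in xNOD, and 2.54 in CAST and 3.86 in xCAST. WSB had the lowest founder control mean for Mmp9, overlapping B6, and for Mmp10, overlapping PWK. The highest control mean of the crosses was that of xWSB for Mmp10, Mmp11, Mmp13, Timp1 and Timp3. For Mmp2, CAST and xCAST were highest in their sets.

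Group means over the 16 founder groups (8 strains by 2 treatments) were used to find the genes most like each member among 11918 genes that passed the filter in every strain. These groups share strains and libraries, and the values are descriptions. Mmp3 and Mmp13 were each other's nearest gene, with Pearson's r = 0.921. Over the 14 groups without PWK, the strain lowest in both, r was 0.805, and the nearest genes were not ranked again. After Mmp13, Mmp3 was most like Ddx51 (0.918) and Vsig10 (0.910), and after Mmp3, Mmp13 was most like Ncbp3 (0.914) and Xpa (0.898). Mmp9 was most like Rnf19b (0.868), Odc1 (0.853) and Apobec3 (0.852), and Mmp10 like Akr1b10 (0.90), Dnajb6 (0.892) and Bbs4 (0.891). Mmp14 was most like Csk (0.960), Fbxl19 (0.952) and Ncs1 (0.928), and Mmp2 like Eogt (0.934), Entpd6 (0.933) and G3bp2 (0.931). Timp3 was nearest to Fras1 (0.934), Cpt1c (0.929) and Heg1 (0.928), Timp2 to Fnbp1 (0.899), Xxylt1 (0.878) and Arhgef40 (0.870), Timp1 to Id3 (0.870), Socs2 (0.865) and Pdia5 (0.828), and Mmp11 to Smpdl3a (0.930), Negr1 (0.903) and Idua (0.894). Among members, r between Mmp13 and Timp3 was -0.875 over 16 groups and -0.672 without PWK.

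Of the other MMPs and inhibitors, 8 of 18 listed by name were tested in each set, none was raised in either and 1 was lowered in each, where 5.4% of all founder genes and 5.57% of all F1 genes were lowered. Mmp15, a membrane-type MMP, was lowered in the founders (-0.71 ± 0.13) and had -0.39 ± 0.17 in the crosses (adjusted p = 0.0525). Mmp17, a membrane-anchored MMP, fell in both sets (-0.47 ± 0.06 and -0.61 ± 0.13), the latter past the fold threshold. Reck, which encodes a membrane-anchored inhibitor of MMPs, fell by the adjusted p alone (-0.24 ± 0.08 and -0.42 ± 0.08). The median was -0.03 in the founders and -0.24 in the crosses, beside -0.04 over all genes in each.

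ADAM and ADAMTS proteases are relatives that shed surface proteins and cleave proteoglycans, and several are blocked by TIMP3. Of 20 tested, 6 were lowered past both thresholds in each set and none was raised, with 11 founder and 12 cross genes lower by the adjusted p alone and medians of -0.36 and -0.39. Of all genes 5.4% and 5.57% were lowered past both thresholds, and 21.9% and 18.8% by the adjusted p alone. Those lowered in the founders were Adam19 (-0.60 ± 0.11), Adam33 (-0.84 ± 0.12), Adamts7 (-0.73 ± 0.06), Adamts9 (-0.90 ± 0.12), Adamts10 (-0.70 ± 0.05) and Adamts12 (-0.66 ± 0.20). The same 6 genes were lowered in the crosses, at -0.63 to -0.84. Adam8, Adam15, Adam23, Adamts2 and Adamts4 fell by the adjusted p alone in both sets, with log2 changes from -0.56 to -0.22, and Adam12 in the crosses (-0.45 ± 0.09). Adamts6 rose in the founders by the adjusted p alone (0.38 ± 0.11) and had 0.20 ± 0.13 in the crosses.

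In the plasminogen system, which activates several proenzymes, 1 of 6 tested genes was raised in each set, where 6.04% and 4.97% of all genes were. This was Serpinb2, the plasminogen activator inhibitor type 2 (1.07 ± 0.05 in the founders and 0.84 ± 0.06 in the crosses). Plau and Plaur, the urokinase and its receptor, and Plat, the tissue activator, fell by the adjusted p alone in both sets, at log2 changes of -0.18 to -0.38, as did 21.9% and 18.8% of all genes. Serpinb2 was also the gene of the list whose change differed among founders in the interaction test. The list's median was -0.13 in the founders and -0.20 in the crosses.

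Of 14 activators, receptors and partners of MMPs, 3 were lowered in each set and none was raised, where 5.4% and 5.57% of all genes were lowered. Furin, a convertase that activates MMP11 and MMP14 proenzymes, was lowered by log2 changes of -0.71 ± 0.06 and -0.70 ± 0.06. Lrp1, an endocytic receptor that clears MMPs and TIMPs, had -0.88 ± 0.13 and -0.97 ± 0.15, and Itgb3, an integrin subunit, -0.74 ± 0.07 and -0.61 ± 0.07. Pcsk6, another convertase, fell by the adjusted p alone in both sets (-0.35 ± 0.06 and -0.41 ± 0.07), Sparc in the founders (-0.17 ± 0.04) and Thbs1 in the crosses (-0.40 ± 0.11). The list's medians were -0.17 in both sets.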

How the data were processed

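Values of 68 MEF samples, sequenced as single-end 100 bp TruSeq libraries, were analysed. The authors aligned reads with TopHat 1.4.1 to strain-specific genomes (the submitters' processing notes name GRCm38). They summed them per gene with a counter not given in the sources used here. Libraries that did not group with their own treatment within a strain in principal components analysis were removed, and the rest were scaled with TMM in edgeR. The libraries kept were thus selected for a difference between control and TM, which favours ranges that do not overlap. The deposited signal values are called FPKM, but each library's values are whole multiples of 1 step that is the same for every gene, so they were treated as scaled reads not divided by length. Whole reads were recovered for 66 of 68 libraries (100% of values whole within 0.1 read). Of each F1 library, 15.5 to 24.1% of the total lay in lines that name no gene and was left out. Since the unit was not counts, limma 3.58.1 in R 4.3.3, with a variance trend, was fitted on log2(value + 0.1), which understates changes of low genes. Genes needed a value of 0.5 in 2 libraries of the genotype. Changes were tested within each genotype, as means over a set and as interactions, with Benjamini-Hochberg adjustment over all genes. A change passed at an adjusted p under 0.01 and 1.5 fold, as in the study. The strain effect, for which the study used an analysis of variance of the fold change, was tested with a moderated F test on log2(TM / median control), and with an unmoderated one as an alternative. edgeR 4.0.16 (quasi-likelihood) on recovered reads was added after the values had been seen. It called 788 genes raised and 659 lowered in the founder mean, and 710 and 684 in the F1 mean. Symbols were found for 13197 of 13378 gene identifiers, and exon lengths and positions come from GENCODE vM21. The genes named were the members, listed genes that passed the test in either mean, and the 3 genes most like each member. 1 listed gene is not reported here. Members and lists were chosen with earlier results of these data known. Alternatives were another pseudocount, no filter, another scaling, library weights, no variance trend, a replicate block and leaving out each library. Scripts were tested on simulated data.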

Additional observations from a re-analysis of the deposited data

Results flagged for a closer look

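The TM change of Mmp9 differed among the 8 founder strains in the interaction test (adjusted p = 0.004545 in limma), with folds of 0.905 in 129 and 1.70 to 2.92 in the other 7. The control libraries of 129, at 34.0 and 33.3, and its TM replicate 1, at 25.6, each decided the call, since leaving out any 1 of them gave an adjusted p of 0.0188 to 0.0628. No group held enough libraries for a check of single libraries that stand apart.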

How the results depend on the processing

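No member reversed direction where its change was called. Of the values for single members under alternatives, 4430 stayed on the same side, 71 lost and 61 gained a call, and 43 moved by more than the spread, and the causes were not tested unless stated. Within founder strains 4 upward and 1 downward changes passed. Upward, this became 1 without the variance trend, 10 in 1 fit over the set and 10 at an FDR of 5%, and 3 to 7 on leaving out 1 library (7 without TM replicate 3 of NZO). Downward, it became 0 with a pseudocount of 1, 0 without the trend, 6 in 1 fit, 5 at 5%, and 0 to 2 on leaving out 1 library. Within crosses 3 upward and 1 downward passed, which became 7 and 3 in 1 fit, 7 and 2 at 5%, 0 downward without the trend, and 0 to 3 and 0 to 2 on leaving out 1 library. The single member lowered in the founder mean, Mmp14, was 0 with library weights and 0 in edgeR, and 0 to 1 on leaving out 1 library. The 2 raised in the F1 mean were 1 with a pseudocount of 1, and 1 to 2 on leaving out 1 library. The founder interaction had 1 member, 2 with library weights and 0 to 1 on leaving out 1 library, the F1 interaction 0, or 1 with library weights (Mmp9, adjusted p = 0.0001426). The strain effect had 2 members, 1 with an unmoderated F test and 1 to 2 on leaving out 1 library. Where leaving out a library left 1 in a group, it was assumed to vary like the other groups.

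Same-numbered control and TM libraries did not deviate together, with a correlation above 0.1 in 11 of 29 pairs (median 0.028), and 11 of 29 controls were most like their own number. With the replicate number as a block, 2 changes were lowered within founder strains, 0 members were lowered in the founder mean and 0 passed the founder interaction (Mmp9, adjusted p = 1). Other blocked counts stayed within 1.5 times. B6 and CAST could not be fitted with the block alone.

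Mmp3 in PWK rested on 3 to 10 reads a library, and a change there was not detectable at this depth.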
